A study of Mus musculus with 24 samples.

Results

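Genes of the Notch pathway and of early thymocytes, 10 in all, were followed in mouse thymus: the receptors Notch1 and Notch3, the Notch target genes Hes1, Nrarp and Dtx1, and the early thymocyte genes Il2ra, Kit, Ptcra, Il7r and Bcl11b. Every gene probe on the array that carried 1 of these 10 names was taken, which gave 16 of 41174 gene probes. Il2ra had 4 probes, Il7r had 3, Notch1 had 2 and the other genes had 1 each. All 16 were among the 35184 probes that passed the filter on dim probes (Cy5 well above background on 6 arrays or more of 24). Thymuses came from C57BL/6 mice aged 15 weeks, 6 mice for each of 4 genotypes: wild type (WT), p27 knockout (p27KO, without Cdkn1b, the gene of the cyclin-dependent kinase inhibitor p27Kip1), stathmin knockout (StmnKO, without Stmn1, the gene of the microtubule-destabilising protein stathmin) and the knockout of both (DKO). Each genotype had 3 females and 3 males, but the sex of a given mouse is not in the labels, which also do not say whether a knockout was restricted to a cell type. Each thymus was labelled with Cy5 and hybridised against 1 pool of fibroblast RNA of all genotypes labelled with Cy3, so each value is a log2 ratio of thymus over that pool. Dyes were never swapped. The study asked what p27 and stathmin do in the control of cell proliferation in the animal.

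Notch receptors are cleaved when they meet a ligand on a neighbouring cell, and the released part joins the DNA-binding protein RBPJ to switch on genes such as Hes1, Nrarp and Dtx1. In the thymus this signal commits incoming progenitors to the T cell lineage. The youngest thymocytes carry the stem cell factor receptor Kit, the next stages carry the interleukin-2 receptor alpha chain Il2ra and the interleukin-7 receptor Il7r, and the pre-T cell receptor chain Ptcra follows. Bcl11b, a transcription factor, closes off other lineages and stays on in T cells. Such early cells are a small part of a thymus, in which double-positive thymocytes (with Cd4 and Cd8) prevail. In RNA of a whole organ, fewer cells of a type and less RNA per cell cannot be told apart.

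RefSeq upstream sequences (build GRCm38.p6) were given for 9 of the 10 genes, and not for Hes1. The 250 bases before the start were searched on both strands for TGGGAA, core letters bound by RBPJ, which also hold the GGGAA core of Ikaros proteins. The letters occurred in 1 of the 9 genes, and in 24.1% of 27025 genes with such a window. Shown are the windows of Nrarp, Il2ra and Ptcra. Ptcra was the gene that held the letters, and Nrarp and Il2ra had probes that passed for DKO against p27KO (described below). Il7r also had such a probe, but its window is not shown. With brightness as a covariate no member probe passed. Capitals mark TGGGAA, whose matches on the gene's own strand began 84 and 32 bases before the Ptcra start. The Nrarp window is chr2:25180508-25180757 on the plus strand, the Il2ra window is chr2:11642542-11642791 on the plus strand and the Ptcra window is chr17:46763713-46763962 on the minus strand.
Nrarp: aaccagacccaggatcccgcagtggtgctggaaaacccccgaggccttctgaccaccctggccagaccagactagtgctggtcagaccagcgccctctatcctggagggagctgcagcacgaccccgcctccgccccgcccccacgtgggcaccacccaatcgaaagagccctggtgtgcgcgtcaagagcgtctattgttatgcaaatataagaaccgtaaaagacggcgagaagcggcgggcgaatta
Il2ra: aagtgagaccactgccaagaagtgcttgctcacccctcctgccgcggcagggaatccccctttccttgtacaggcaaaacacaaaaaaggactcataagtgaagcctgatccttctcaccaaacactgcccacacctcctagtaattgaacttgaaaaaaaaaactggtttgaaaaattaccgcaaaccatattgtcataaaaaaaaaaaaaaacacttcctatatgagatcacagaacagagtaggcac
Ptcra: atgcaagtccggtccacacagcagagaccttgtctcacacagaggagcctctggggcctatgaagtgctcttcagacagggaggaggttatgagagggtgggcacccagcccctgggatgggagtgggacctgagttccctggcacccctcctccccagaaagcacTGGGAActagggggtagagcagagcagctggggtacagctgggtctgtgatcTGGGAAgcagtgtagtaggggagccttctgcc

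The p27KO arrays were dim in the thymus channel. The 99th percentile of the Cy5 signal (in units of 1000) lay between 19.4 and 171 on the 6 p27KO arrays, between 56.3 and 286 on WT, between 131 and 340 on StmnKO and between 200 and 320 on DKO. Ratios of p27KO replicates 6 and 5 had mean correlations with the remaining arrays of 0.21 and 0.558, against 0.77 to 0.859 elsewhere. Most values for DKO against p27KO and for p27KO against WT are therefore given with and without these replicates. In comparisons without p27KO they enter only through the estimate of spread that all arrays share. For Dtx1 in DKO minus WT the SE was 0.57 with and 0.30 without them. Each of the 6 slides carried all 4 genotypes, but a genotype always took the same place on the slide, so place and genotype cannot be told apart. The deleted genes followed the labels on these probes: Stmn1 (A_52_P319161) averaged 3.1 in WT, 2.45 in p27KO, -2.95 in StmnKO and -3.19 in DKO, and Cdkn1b (A_51_P146126) averaged 1.80 (n = 5), 0.30, 1.64 and -0.50 (n = 5). Both probes were chosen after their values were seen. In the same order of genotypes the other Stmn1 probe (A_51_P495641) averaged 3.54, 2.81, 2.01 and 1.88, and the other Cdkn1b probes averaged 0.28, -0.78, 0.49 and -0.65 (A_51_P169173) and -0.50, -0.99, -0.54 and -0.61 (A_52_P673863). The last did not separate DKO from WT. Where these probes lie relative to the deletions was not analysed here.

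The 10 genes ranged from far above to below the fibroblast pool. In WT thymus the brightest probe averaged 4.77 ± 0.35 (SD, n = 6) for Ptcra, 4.32 ± 0.24 for Bcl11b, 4.05 ± 0.65 for Il7r, 3.64 ± 0.61 for Il2ra, 3.52 ± 0.58 for Kit and 3.25 ± 0.50 for Dtx1. Nrarp averaged 1.65 ± 0.83 and Notch1 1.48 ± 0.21. Notch3 at -0.26 ± 0.27 and Hes1 at -0.73 ± 0.94 averaged below 0, with WT values up to 0.17 and 0.74, and neither mean was tested against 0. All these values are ratios to fibroblasts, so they do not rank the genes by abundance. The pool had almost no signal for some genes: Cy3 stood well above background on 1 of 24 arrays for the brightest probes of Il2ra and Kit, on 10 for Nrarp, and on 23 or all 24 for the other 7 genes. Thymocyte markers checked the tissue. The median ratio of 11 double-positive thymocyte genes lay between 4.96 and 7.41 on all arrays but p27KO replicate 6, where it was 0.08. On that array marker lists of other cells also had medians near 0, among them thymic epithelium (-0.15), adipocytes (-0.10), B cells (-0.03) and endothelium (-0.27). Fibroblast genes were at -0.95 there, and genes of mast cells and progenitors at 0.49. The low value was thus not particular to thymocyte genes.

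**Figure D1:**
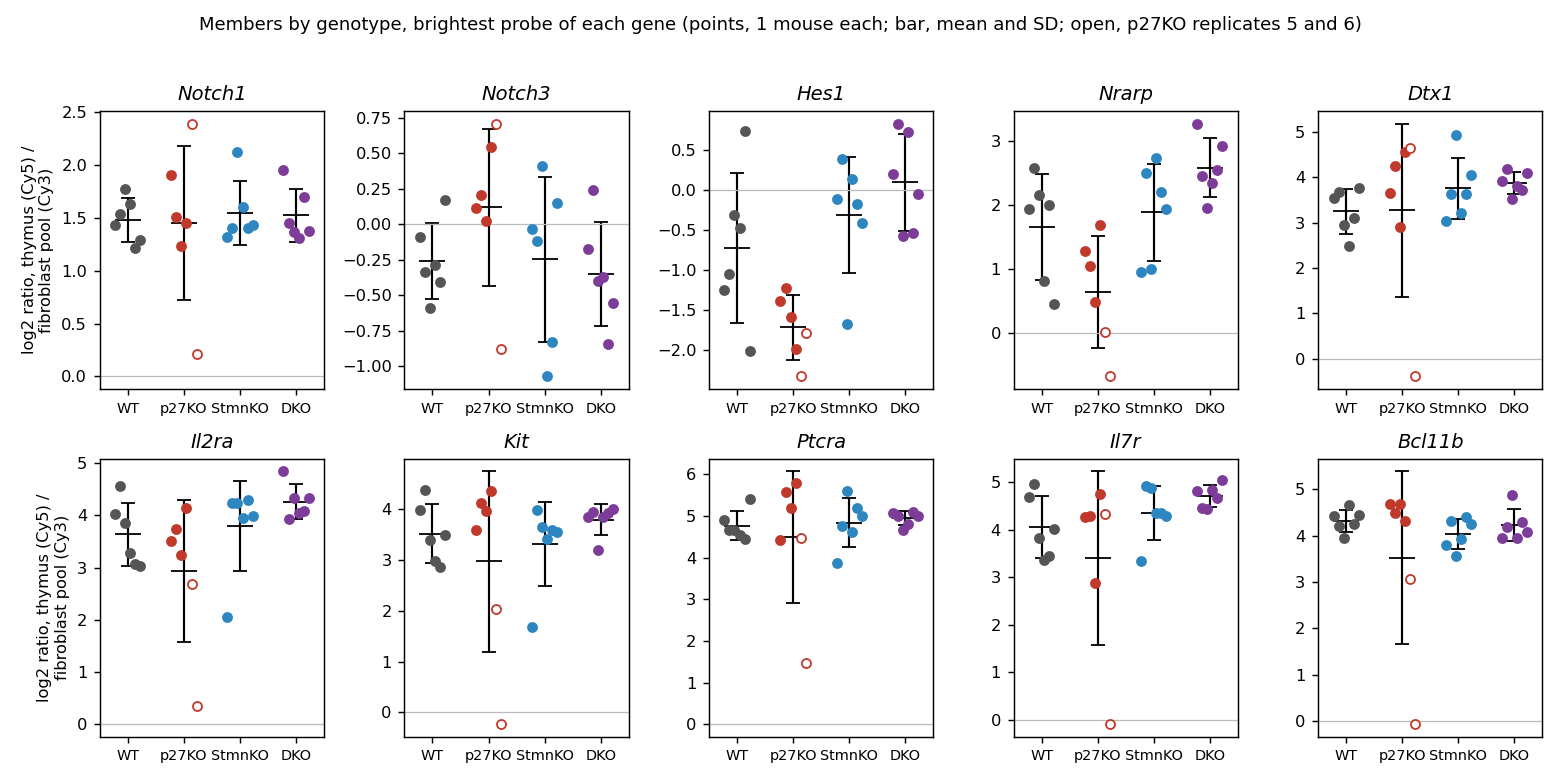
Log2 ratio of thymus over fibroblast pool for the brightest probe of each gene in WT, p27KO, StmnKO and DKO (1 point per mouse, bars show mean and SD, n = 6, open points are p27KO replicates 5 and 6). Hes1 lay between -2.34 and -1.22 in p27KO and between -0.58 and 0.84 in DKO, with no overlap, while p27KO replicate 6 lay far below its group for Dtx1, Ptcra and Bcl11b.

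DKO against p27KO was the comparison in which members differed. Hes1 and Nrarp, a transcriptional repressor and a feedback inhibitor that Notch switches on, were higher in DKO by 1.82 ± 0.39 and 1.94 ± 0.41 (log2 difference ± SE, 3.54-fold and 3.83-fold). One Il2ra probe was higher by 2.38 ± 0.42 and 1 Il7r probe by 1.58 ± 0.42. Notch1, Notch3, Dtx1, Kit, Ptcra and Bcl11b did not pass the threshold, an adjusted p under 0.05 in limma's moderated test over all 35184 probes. In all, 6 of 16 member probes passed, all higher in DKO, where 30.0% of all probes passed in either direction and 13.3% were higher. With the Cy5 brightness of each array as a covariate 0 of 16 passed, and 1 of all 35184 probes did. Hes1 then differed by 1.23 (limma adjusted p = 0.596) and Nrarp by 0.50 (adjusted p = 0.614). The Il2ra probe A_52_P243438 differed by 1.48 and the Il7r probe A_52_P555957 by 1.27, both with an adjusted p of 0.596, and the brightest Il2ra probe by 1.2e-05. No DKO array was as dim in Cy5 as the brightest p27KO array.

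The Hes1 ratio ran from -2.34 to -1.22 (median -1.69) in p27KO, from -2.02 to 0.74 (median -0.76) in WT, from -1.68 to 0.39 (median -0.14) in StmnKO and from -0.58 to 0.84 (median 0.08) in DKO. Every DKO array lay above every p27KO array, while WT spanned nearly the whole range. The DKO minus p27KO difference had an adjusted p of 0.00402 in limma's test and was above 0 on 6 of 6 slides (0.68 to 3.17). Without p27KO replicates 5 and 6 it was 1.65 (adjusted p = 0.0239). The genotype means were ordered p27KO, WT, StmnKO, DKO, and no neighbours in that order differed by limma's test.

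Nrarp, whose product limits Notch signalling, had the same order. Its ratio ran from -0.67 to 1.68 (median 0.77) in p27KO, from 0.45 to 2.57 (median 1.96) in WT, from 0.96 to 2.74 (median 2.07) in StmnKO and from 1.95 to 3.27 (median 2.5) in DKO. DKO and p27KO did not overlap. The difference had a limma adjusted p of 0.00402, was above 0 on 6 of 6 slides (1.06 to 2.62) and was 1.45 (adjusted p = 0.0270) without p27KO replicates 5 and 6. Nrarp also followed brightness among the other 3 genotypes. Over their 18 arrays, centred on each genotype's mean, its ratio correlated with the log2 of the 99th percentile of Cy5 by r = 0.74 (permutation p = 0.00285) and rho = 0.74 (permutation p = 0.00173). Adjusted over the 10 genes tested these were 0.0285 and 0.0173, and r was 0.72 without the 2 arrays farthest from the median brightness (WT replicate 4 and StmnKO replicate 3). For Hes1 r was 0.46 (permutation p = 0.126, adjusted 0.518) and rho was 0.51 (permutation p = 0.0451, adjusted 0.226), with r = 0.67 without those 2 arrays. The other 8 genes gave r between -0.26 and 0.25, with adjusted permutation p of at least 0.518 for r and 0.522 for rho. Only the brightest probe of each gene was used here. The Il2ra probe A_52_P243438 and the Il7r probe A_52_P555957 were therefore not tested for a relation with brightness. How much of the genotype difference goes with brightness cannot be told apart from genotype in p27KO.

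**Figure D2:**
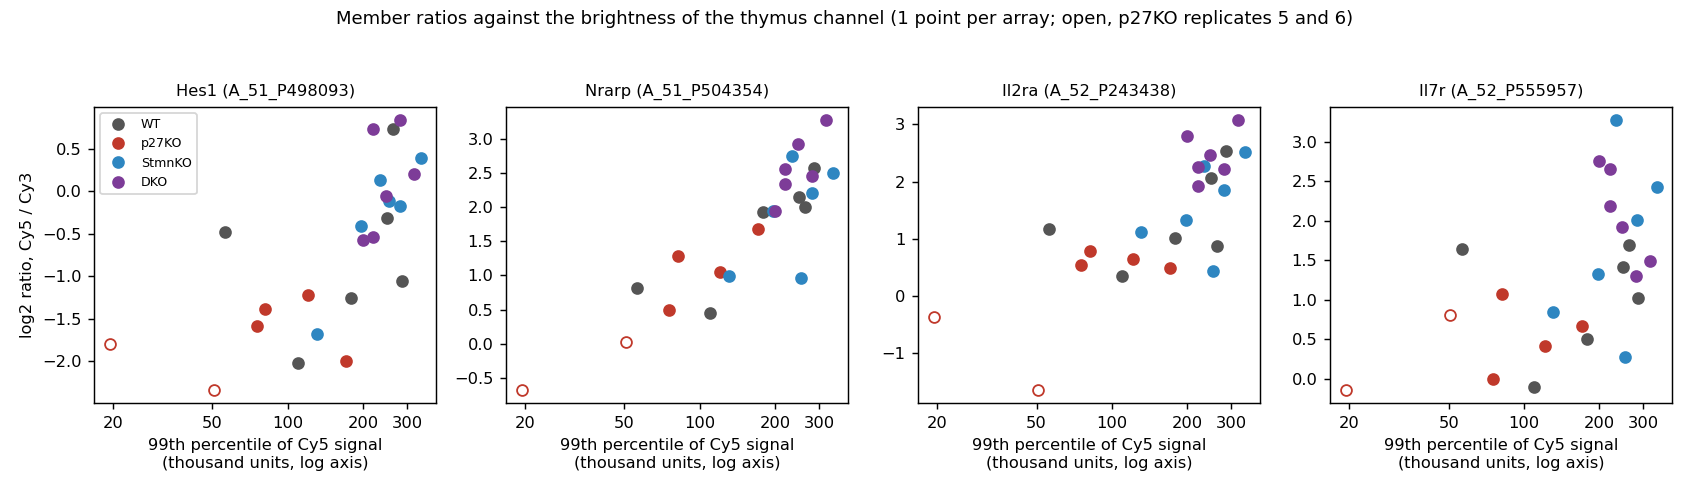
Log2 ratio of Hes1, Nrarp and the Il2ra and Il7r probes that passed with and without p27KO replicates 5 and 6, against the 99th percentile of the Cy5 signal of the array (log axis, 1 point per array, open points are p27KO replicates 5 and 6). The p27KO points lie at 19.4 to 171 (in units of 1000) and the DKO points at 200 to 320, and the WT arrays at 56.3 and 110 show Nrarp at 0.81 and 0.45, below the other WT arrays.

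Il2ra, the interleukin-2 receptor alpha chain of early thymocytes and of regulatory T cells, passed on 3 of its 4 probes. Probe A_52_P243438 ran from -1.64 to 0.79 (median 0.52) in p27KO, from 0.34 to 2.54 (median 1.09) in WT, from 0.44 to 2.53 (median 1.59) in StmnKO and from 1.93 to 3.07 (median 2.36) in DKO. The value of -1.64 was p27KO replicate 5, the 1 array where Cy3 of this probe stood well above background (388, beside a median of 158.5 over the arrays). DKO and p27KO did not overlap, and the difference (limma adjusted p = 0.00325) was 1.84 without p27KO replicates 5 and 6 (adjusted p = 0.0191). The brightest probe, A_51_P118945, did overlap: it ran from 0.35 to 4.14 (median 3.37) in p27KO and from 3.93 to 4.84 (median 4.21) in DKO. Its difference of 1.33 ± 0.48 (limma adjusted p = 0.0402) dropped to 0.61 (adjusted p = 0.233) without p27KO replicates 5 and 6, and to 0.81 (adjusted p = 0.0885) without replicate 6 alone. It also missed the threshold with slide as a block (adjusted p = 0.0568), without p27KO replicate 5, and without any 1 of DKO replicates 1, 3, 4, 5 and 6 (1.21 to 1.37, adjusted p from 0.0550 to 0.0805). Probe A_52_P277016 differed by 1.44 ± 0.40 (adjusted p = 0.0122), and by 1.03 (adjusted p = 0.0697) without p27KO replicates 5 and 6. Probe A_52_P330424, with thymus signal well above background on 16 of 24 arrays, differed by 0.48 ± 0.22 (adjusted p = 0.104). All 4 probes thus gave a positive difference, and the size ranged from 0.48 to 2.38. Their reference signal stood well above background on 1 array at most.

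Il7r, the receptor for a survival cytokine of early and mature T cells, gave unequal answers by probe. Probe A_52_P555957 ran from -0.14 to 1.08 (median 0.54) in p27KO and from 1.30 to 2.76 (median 2.06) in DKO, without overlap, and passed (limma adjusted p = 0.00966, and 1.51 with adjusted p = 0.0370 without p27KO replicates 5 and 6). In WT it ran from -0.11 to 1.69 and in StmnKO from 0.28 to 3.28. The Cy3 signal of this probe stood well above background on 0 of 24 arrays (median 159.8). Its Cy5 signal was also low, from 133 to 324 in p27KO and from 464 to 1585 in DKO. The brightest probe, A_51_P196695, ran from -0.09 to 4.75 (median 4.28) in p27KO and from 4.43 to 5.04 (median 4.74) in DKO. Those groups overlapped, and the difference of 1.30 ± 0.55 had an adjusted p of 0.0734. Without p27KO replicates 5 and 6 it was 0.66 (adjusted p = 0.178), and without p27KO replicate 4 it was 1.57 (adjusted p = 0.0344). The third probe, A_52_P32750, was well above background on 11 of 24 arrays and differed by 0.29 ± 0.21 (adjusted p = 0.296). Over the 22 arrays without p27KO replicates 5 and 6 the Il7r probes correlated with each other by 0.354 to 0.425, against 0.705 to 0.867 for the Il2ra probes and 0.717 for the Notch1 probes.

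The receptors themselves showed small differences. Notch1 (A_51_P508510, 10 spots per array) ran from 0.21 to 2.39 (median 1.48) in p27KO, from 1.21 to 1.77 in WT, from 1.31 to 2.13 in StmnKO and from 1.31 to 1.95 (median 1.41) in DKO. All groups overlapped, and DKO minus p27KO was 0.07 with a 95% interval from -0.44 to 0.59. The SD over its 10 spots had a median of 0.09 per array, below the SD of 0.21 to 0.73 between mice of a genotype. The other Notch1 probe differed by 0.26 ± 0.23 (limma adjusted p = 0.404). Notch3 ran from -0.88 to 0.71 (median 0.16) in p27KO and from -0.84 to 0.24 (median -0.38) in DKO, a difference of -0.47 ± 0.27 (adjusted p = 0.178). It was the single member probe with a negative difference. Without p27KO replicate 6 that difference passed, at -0.67 (adjusted p = 0.0428), and without replicates 5 and 6 it was -0.57 (adjusted p = 0.113).

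Dtx1, a ubiquitin ligase and Notch target, did not follow Hes1 and Nrarp. It ran from -0.39 to 4.65 (median 3.96) in p27KO, from 2.49 to 3.76 (median 3.32) in WT, from 3.03 to 4.94 (median 3.64) in StmnKO and from 3.52 to 4.17 (median 3.86) in DKO. The lowest p27KO value was replicate 6, and the p27KO median was the highest of the 4. DKO minus p27KO was 0.60 ± 0.57 (limma adjusted p = 0.427) and 0.03 (adjusted p = 0.956) without p27KO replicates 5 and 6.

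Kit, Ptcra and Bcl11b gave differences whose sign rested on p27KO replicates 5 and 6. Kit, the stem cell factor receptor, ran from -0.23 to 4.36 (median 3.78) in p27KO and from 3.19 to 4.01 (median 3.89) in DKO, and DKO minus p27KO was 0.82 ± 0.56 (limma adjusted p = 0.260) with and -0.21 (adjusted p = 0.678) without them. Ptcra, which pairs with the rearranged T cell receptor beta chain, ran from 1.46 to 5.80 (median 4.83) in p27KO and from 4.67 to 5.09 (median 5.00) in DKO, a difference of 0.45 ± 0.47 (adjusted p = 0.474) with and -0.31 (adjusted p = 0.433) without them. Bcl11b ran from -0.07 to 4.69 (median 4.40) in p27KO and from 3.95 to 4.88 (median 4.14) in DKO, a difference of 0.70 ± 0.53 (adjusted p = 0.310) with and -0.31 (adjusted p = 0.250) without them. In these 3 genes the medians of p27KO and DKO were close, and p27KO replicate 6 was the lowest of all arrays.

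Over all 16 probes the median DKO minus p27KO difference was 0.76, with 15 above 0, beside a median of -0.08 over all probes. Without p27KO replicates 5 and 6 it was 0.26, with 11 above 0, and 4 of 16 probes passed, beside 15.0% of all probes in either direction and 6.04% higher. Those 4 were Hes1, Nrarp, Il2ra A_52_P243438 and Il7r A_52_P555957, the same 4 whose DKO arrays all lay above all p27KO arrays, which held for 6.01% of all probes. The 6 probes that passed on all arrays were each higher in DKO on 6 of 6 slides.

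**Figure D3:**
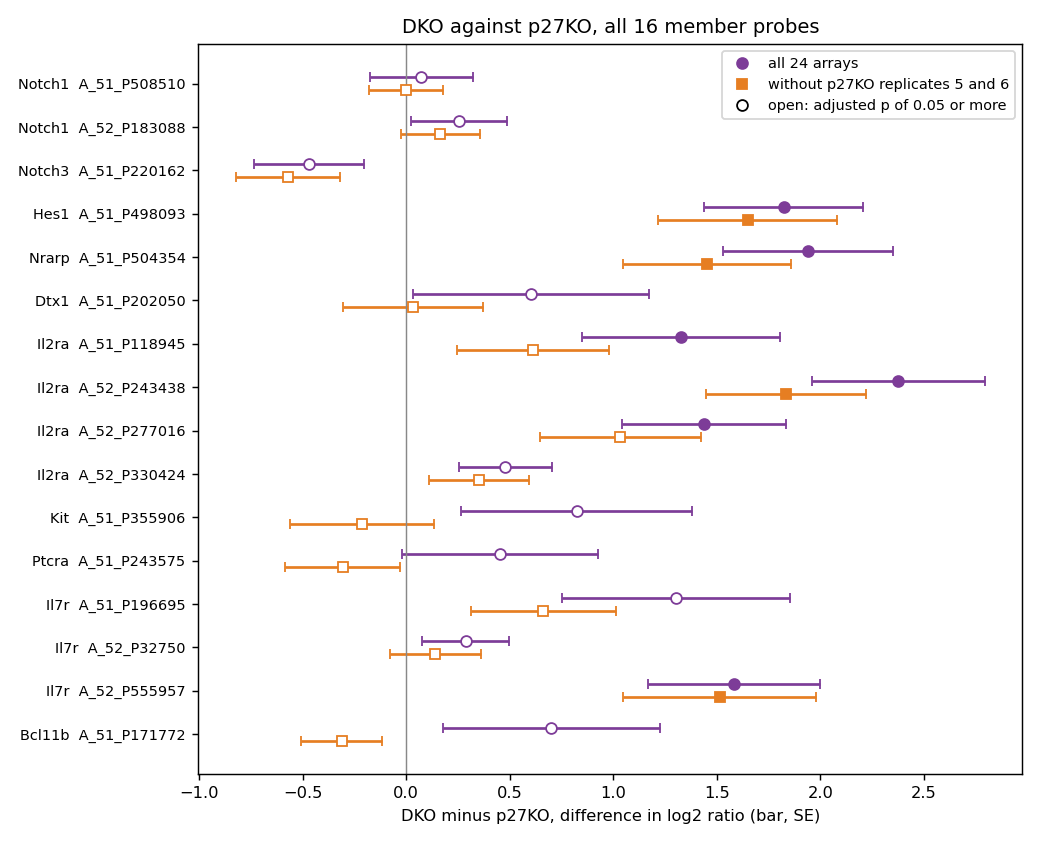
DKO minus p27KO difference in log2 ratio of each of the 16 member probes (bar, SE), with all 24 arrays (circles) and without p27KO replicates 5 and 6 (squares). Filled symbols have an adjusted p under 0.05: 6 probes with all arrays and 4 without the 2 replicates, and Kit, Ptcra, Bcl11b and, close to 0, Notch1 A_51_P508510 change sign.

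**Figure D4:**
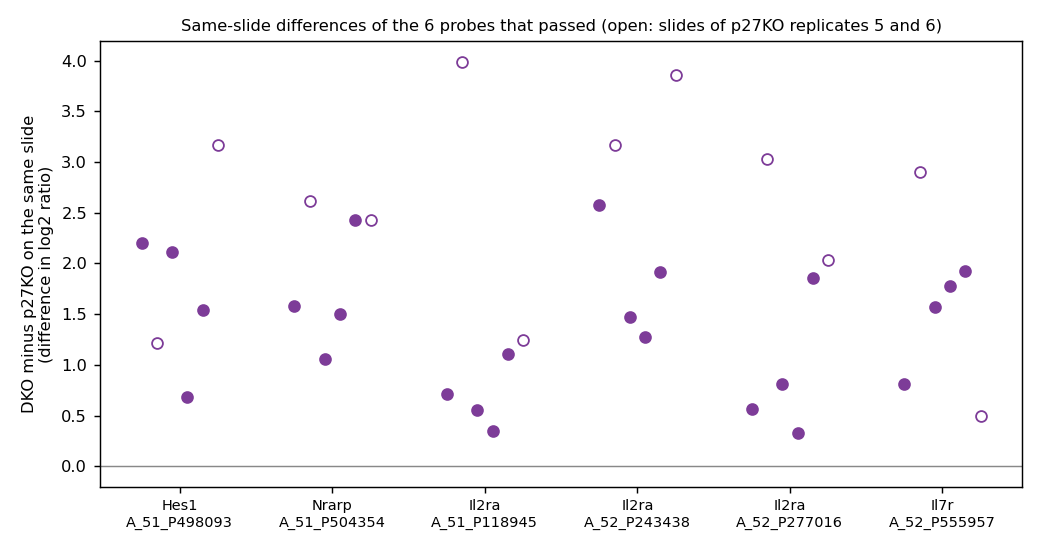
DKO minus p27KO log2 ratio on the same slide for the 6 probes that passed, 1 point per slide, with open points for the slides of p27KO replicates 5 and 6. All points lie above 0, and the largest for Il2ra A_51_P118945, 3.99, is from the slide of p27KO replicate 6.

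The single knockouts differed from WT in no member probe. For p27KO against WT, 0 of 16 passed, beside 0.00568% of all probes, and 3 of 16 had an unadjusted limma p under 0.05, beside 29.3% of all probes. Those 3 were Hes1 (-0.99 ± 0.39, adjusted p = 0.106), Nrarp (-1.01 ± 0.41, adjusted p = 0.117) and Il2ra A_52_P243438 (-1.25 ± 0.42, adjusted p = 0.0822). Their sizes without p27KO replicates 5 and 6 were -0.82, -0.53 and -0.71, with adjusted p from 0.389 to 0.518. Leaving out WT replicate 6 instead let 3 probes pass, Hes1 (-1.25, adjusted p = 0.0393) and Nrarp (-1.25, adjusted p = 0.0487) among them, and leaving out p27KO replicate 1 let 1 pass. The median over the 16 probes was -0.55 with all arrays and 0.0048 without p27KO replicates 5 and 6.

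StmnKO against WT gave 0 of 16, beside 0.00284% of all probes, and 0 of 16 at an unadjusted limma p under 0.05, beside 2.37%. The widest differences were 0.66 ± 0.42 for Il7r A_52_P555957, 0.50 ± 0.57 for Dtx1 and 0.42 ± 0.39 for Hes1, each with an adjusted p of at least 0.99. The median over the 16 probes was 0.15. With p27KO replicates 5 and 6 left out of the fit, the unadjusted count stayed 0 of 16, beside 4.36% of all probes.

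DKO against WT gave 0 of 16, beside 0.0114% of all probes, and 4 of 16 at an unadjusted limma p under 0.05, beside 4.63%. These were Il2ra A_52_P243438 (1.13 ± 0.42, adjusted p = 0.726), Il7r A_52_P555957 (1.03 ± 0.42, adjusted p = 0.897), Nrarp (0.93 ± 0.41) and Hes1 (0.83 ± 0.39), the last pair with adjusted p above 0.99. They are the 4 probes that passed against p27KO with and without its replicates 5 and 6, and both comparisons use the same DKO arrays. With those p27KO replicates left out of the fit, 0 of 16 passed for DKO against WT, beside 0.162% of all probes. The count at an unadjusted limma p under 0.05 was then 6 of 16, beside 8.67%. The median over the 16 probes was 0.45, with 14 above 0, beside -0.02 over all probes. Under the other ways of correcting and scaling the arrays it was lower, from 0.12 to 0.32, with 10 to 12 probes above 0.

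DKO against StmnKO gave 0 of 16, beside 0.00568% of all probes, and 1 of 16 at an unadjusted limma p under 0.05, beside 1.16%, Il2ra A_52_P243438 (0.87 ± 0.42, adjusted p of 1). The interaction, which asks whether the DKO departs from the sum of both single knockouts, gave 0 of 16 and 0 of all probes, with 3 of 16 at an unadjusted limma p under 0.05, beside 18.4%. It was 2.12 ± 0.59 for Il2ra A_52_P243438, 1.70 ± 0.58 for Nrarp and 1.40 ± 0.55 for Hes1, each with an adjusted p of 0.258. With p27KO replicates 5 and 6 left out these were 1.58, 1.22 and 1.23, each with a limma adjusted p of 0.488. Il2ra A_52_P243438 was above 0 on 6 of 6 slides and the others on 5 of 6.

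The other genes of the pathway went both ways. Of 36 further Notch genes tested on their brightest probe, 9 were higher and 8 lower in DKO than in p27KO, with a median difference of 0.06, beside 13.3% higher and 16.8% lower among all probes. The ligands Jag2 (2.23 ± 0.53, limma adjusted p = 0.00597), Dll4 (1.25 ± 0.30, 0.00664) and Dll1 (1.09 ± 0.35, 0.0259) were higher, as were the receptor Notch4 (1.49 ± 0.41), the receptor-modifying Lfng (1.06 ± 0.24), the protease Adam10 (2.54 ± 0.55), the gamma-secretase subunit Aph1a (0.76 ± 0.22), the Notch inhibitor Numb (1.11 ± 0.32) and the target Heyl (1.62 ± 0.33). Among the lower were Rbpj, the DNA-binding partner of Notch (-0.62 ± 0.19), the target Hes5 (-1.21 ± 0.28), the co-repressor Spen (-1.91 ± 0.39), Dtx4 (-2.79 ± 0.62), Dtx3 (-1.25 ± 0.31), Pofut1 (-0.86 ± 0.24) and Aph1b (-1.19 ± 0.37). Second probes of Dtx4 and Dtx3 passed in the opposite direction (0.92 and 1.01), so these genes have no settled direction. Second probes of Heyl (1.95), Aph1a (1.72) and Numb (0.62) passed with the brightest, and single further probes of Fbxw7 (1.64) and Itch (0.75) were higher. Without p27KO replicates 5 and 6, 6 were higher and 5 lower, beside 6.04% and 8.95% of all probes. Jag2 was then 1.27 (adjusted p = 0.0246) and Hes5 -0.75 (0.0322), while Notch4, Numb, Dll1, Rbpj, Pofut1 and Aph1b missed the threshold on their brightest probe (Dll1 0.47, adjusted p = 0.192).

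Of 34 further early T cell genes, 1 was higher and 2 were lower in DKO than in p27KO on the brightest probe, with a median of 0.23, a smaller share than the 30.0% of all probes that passed. Flt3, a receptor of early progenitors, was higher by 1.68 ± 0.45 (limma adjusted p = 0.0108, and 1.60 with 0.0438 without p27KO replicates 5 and 6). The chemokine receptor Ccr9 was lower by 0.94 ± 0.32 in DKO (adjusted p = 0.0326) and the adhesion receptor Cd44 by 1.33 ± 0.41 (adjusted p = 0.0215). Without p27KO replicates 5 and 6 Ccr9 was at -1.13 (adjusted p = 0.0245) and Cd44 at -0.67 (adjusted p = 0.132). Further probes passed for Runx1 (-2.03), Tcf3 (1.83, on a probe named Tcfe2a on the array), Tcf12 (-1.40), Stat5b (1.26), Cd247 (2.05 and 1.16), Myb (1.75) and Lef1 (1.5), none of them the brightest probe of its gene. Of these only the Runx1 probe passed without p27KO replicates 5 and 6 (-1.27, adjusted p = 0.0259). On the brightest probes 1 gene was then higher and 10 were lower, with a median of -0.57, beside 6.04% higher and 8.95% lower among all probes. In the other comparisons and the interaction 0 genes of either list passed on their brightest probe. Among the lowest p values there were, for p27KO against WT, those of Hes5 (0.92, limma adjusted p = 0.0790), Cd24a (-0.63, 0.0843) and Cd44 (1.08, 0.104). For DKO against WT they belonged to Heyl (1.08, 0.419), Dll4 (0.92, 0.500), Flt3 (0.88) and Erg (-0.52), for StmnKO against WT to Jag1 (0.60), Heyl (0.60), Id3 (-0.42) and Runx1 (-0.56), and for DKO against StmnKO to Heyl (0.48), Maml3 (0.25), Flt3 (0.78) and Rag2 (0.36). For the interaction they belonged to Lfng (0.92), Pofut1 (-0.90), Flt3 (1.58) and Jak3 (1.28).

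Markers of other cells were read in the same comparison, in which 13.3% of all probes were higher and 16.8% lower. Of 11 double-positive thymocyte genes 0 passed in DKO against p27KO with all arrays (median -0.06), and 7 were lower without p27KO replicates 5 and 6 (median -0.98). Of 10 fibroblast genes 6 were lower in DKO (median -0.81), and 0 were without those replicates (median -0.49). The median ratio of the fibroblast list per array lay between -3.35 and -0.95 in p27KO, between -3.95 and -2.74 in DKO, between -3.64 and -2.52 in WT and between -3.55 and -2.35 in StmnKO. The -0.95 was p27KO replicate 6, and without replicates 5 and 6 the highest p27KO value was -1.925. Adipocyte genes were higher in 3 of 6 (median 1.43), endothelial genes in 2 of 5 (1.54), regulatory T cell genes, a list of cells that also carry Il2ra, in 2 of 5 (0.42), thymic epithelial genes in 2 of 9 (0.27), B cell genes in 1 of 6 (0.93) and myeloid genes in 1 of 6 (0.68). Of 8 genes of mast cells and progenitors, cells that also carry Kit, 3 were higher and 1 lower (0.42), and of 4 innate lymphoid and natural killer genes tested 2 were higher and 1 lower (1.25). Without p27KO replicates 5 and 6 the regulatory T cell list held 1 higher and 2 lower (median -0.01), the mast cell and progenitor list 2 higher (0.33), and the adipocyte (0.81), endothelial (0.46) and thymic epithelial (-0.30) lists 1 higher each. In the B cell (0.37), myeloid (0.38) and innate lymphoid and natural killer (0.71) lists 0 then passed. The median ratio of the regulatory T cell list per array lay between -0.31 and 3.24 in p27KO and between 2.49 and 3.02 in DKO, that of the mast cell and progenitor list between 0.12 and 1.86 and between 0.26 and 1.84. The p27KO value of -0.31 was replicate 6 and that of 1.86 was replicate 5. Without these replicates the p27KO ranges were 2.68 to 3.24 and 0.12 to 0.63. The part of these cells in the member differences was not tested.

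The members did not share a single pattern over the arrays. Over the 22 arrays without p27KO replicates 5 and 6, the named genes most like Hes1 on their Pearson correlation were Ybx3 (0.954), Bin1 (0.94) and Aktip (0.929), and those most like Nrarp included Chn2 (0.955) and B4galnt4 (0.945). Il2ra was nearest to Chdh (0.923), Gpr171 (0.915) and Rag2 (0.909), Kit to Epsti1 (0.888), Fgr (0.863) and Gpr171 (0.838), and Il7r to Tnfrsf17 (0.88), N4bp2l1 (0.875) and Ly9 (0.855). Dtx1 was nearest to Rhbdf2 (0.897), Spint1 (0.875) and Il2rb (0.875), Ptcra to Slc22a7 (0.89), Ccdc69 (0.863) and Ung (0.851), and Bcl11b to Trpc4ap (0.812), Satb1 (0.793) and Arpc1b (0.785). Notch3 was nearest to Usp10 (0.9), Numa1 (0.897) and Cep63 (0.897), and Notch1 to Parpbp (0.737), Ppp1cc (0.72) and Anubl1 (0.719). Gpr171 was named for both Il2ra and Kit, and no member was among the 3 nearest genes of another. Some members still went together on the same arrays: r was 0.807 for Il2ra with Il7r, 0.729 for Il2ra with Kit, 0.721 for Dtx1 with Il7r and 0.636 for Hes1 with Nrarp. Others went apart, with -0.535 for Notch3 with Nrarp and -0.508 for Hes1 with Ptcra. The arrays share their reference, slides and brightness, so these correlations are descriptions of the arrays.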

How the data were processed

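Thymus RNA of 24 mice was read on 2-colour Agilent arrays with Cy5 for thymus and Cy3 for the fibroblast pool, per the labels. Scanner files were deposited for all arrays, and their spot and background intensity came from the authors' run of Agilent Feature Extraction (version 9.1.3.1 in the headers). The deposited log10 ratios had been dye-normalized, per the file headers. The authors also deposited log2 values of all arrays in 1 table. It correlated by at least 0.9999 with the mean brightness of both channels and by at most 0.067 in size with the ratio, so it follows brightness and is not a ratio. Its columns are not centred on a common median, and the sources used here do not say how it was computed. The medians of its columns for replicates 1 to 6 were 9.30, 9.36, 9.33, 8.66, 9.75 and 9.24 in WT, 8.75, 8.74, 8.90, 9.12, 8.76 and 8.62 in p27KO, 10.6, 9.46, 8.88, 9.10, 9.18 and 9.20 in StmnKO, and 9.40, 9.32, 9.46, 9.17, 9.15 and 9.30 in DKO.

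Intensities were corrected with normexp (offset 50) and normalized by loess within each array, with no weight on control spots, in limma 3.58.1 (R 4.3.3, the data.table package, version 1.17.8). Spots flagged as outliers by the scanner software were dropped (a mean of 68 and at most 314 an array), and spots of a probe were averaged. No member value was missing. The accessions of 22951 probes matched a gene table of assembly GRCm38.p6, and 18223 probes kept the file's name. Genes of the lists were found by accession, and by name only where no accession matched. Probes with Cy5 well above background on at least 6 arrays (35184) were fitted together, with genotype as the only term, all 24 arrays sharing 1 estimate of the spread and Benjamini-Hochberg adjustment over all probes (threshold 0.05). Effects are log2 differences. The fit was tested on simulated data with independent normal noise, equal spread in all genotypes and changes planted in DKO, read against WT. Such data hold no deviant p27KO arrays and no link of brightness with genotype. The calls in DKO against p27KO were not tested by them. Permutation tests used 100000 resamples within genotypes and were two-sided. The number of arrays limits the precision, and no 2 arrays held identical signals.

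The members, the gene lists and the tests were chosen with earlier results of these data known. The text names every member probe, every passing probe of the lists of further Notch and early T cell genes (or the 2 genes with the lowest p where none passed), Cdkn1b and Stmn1, and for each member the 3 named genes with the highest correlation. Some genes that this rule names are not reported here. Alternatives covered background correction, scaling, the filter on dim probes, outlier spots, the brightest probe per gene, slide, replicate number, array weights, brightness as a covariate, 2 groups only, and arrays left out.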

Additional observations from a re-analysis of the deposited data

Results flagged for a closer look

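Of 64 sets of 6 mice (16 probes in 4 genotypes), 9 held a value whose gap to the nearest other mouse was a large share of the range (past Dixon's 95% limit for 6 samples). Chance gives about 5%, and sets of the same array are not independent. p27KO replicate 6 was the lowest of its genotype for Dtx1 at -0.39 (next 2.89), for Ptcra at 1.46 (next 4.41) and for Bcl11b at -0.07 (next 3.07). StmnKO replicate 1 was the lowest for Kit at 1.68 (next 3.42) and for 2 Il2ra probes, A_51_P118945 at 2.05 (next 3.96) and A_52_P277016 at 0.81 (next 2.28). DKO replicate 3 was the lowest for Kit at 3.19 (next 3.84) and the highest for Bcl11b at 4.88 (next 4.30). StmnKO replicate 3 was the highest for Notch1 A_51_P508510 at 2.13 (next 1.60).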

How the results depend on the processing

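The count of 6 member probes in DKO against p27KO went to 14 in the authors' deposited table (where 52% of all probes passed), to 3 with 1 probe per gene (of 10 genes) and to 0 with brightness as a covariate (Hes1 1.23, Nrarp 0.50, Il2ra A_52_P243438 1.48, Il7r A_52_P555957 1.27). It was also 0 with brightness as a covariate and p27KO replicates 5 and 6 left out, a setting chosen after seeing the data. In the authors' deposited table, which follows brightness, the median over all probes was 0.68 for DKO minus p27KO and -0.57 for p27KO minus WT, 12 members passed for p27KO against WT (beside 26.3% of all probes), and 2 differences turned: Dtx1 to -1.01 in p27KO against WT and Notch3 to 0.90 in DKO against p27KO. Leaving out 1 mouse at a time gave 5 to 8 member probes in DKO against p27KO and 0 to 3 in p27KO against WT, and 0 in the other comparisons and the interaction. Hes1 then differed by 1.68 to 1.96 and Nrarp by 1.68 to 2.15 in DKO against p27KO, past the threshold each time. With the replicate block the count in DKO against p27KO was 6, as without it, and 0 elsewhere. The same replicate number lay on the same slide in WT, StmnKO and DKO, but on another slide in p27KO. Deviations of mice with the same number had mean correlations from -0.13 to 0.224 (lowest pair -0.53). For mice on the same slide the means were 0.0174 to 0.263 (lowest pair -0.32). Whether the numbers pair the mice cannot be told from these values. The StmnKO and DKO contrasts against WT, DKO against StmnKO and the interaction gave 0 member probes under every alternative. Scaling between arrays turned the members' median for DKO minus StmnKO to -0.06. Genotype means moved by over 1 SD in 34 of 64 cases with Agilent's log ratios, in 5 without background correction and in 8 with scaling. Reference signal near background limits the ratios of Il2ra, Kit, Nrarp and 2 Il7r probes.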
